A study of Mus musculus with 24 samples.

Results

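Translation initiation and elongation factors were followed across mouse livers of 8 groups. The members were the genes whose symbol starts with Eif1 to Eif6 or with Eef1 or Eef2. Kinases of eIF2 (Eif2ak), the Eif3j genes, the eIF4E-binding proteins (Eif4ebp), Eif2s1 and Eef1e1 stood outside the rule. It found 55 of the 15741 genes in the deposited tables, by symbol alone. The study crossed genotype, diet and time of death to ask how loss of GCN2 and feeding without leucine affect daily patterns of liver gene expression. GCN2, the product of Eif2ak4, is a kinase that is activated by uncharged transfer RNA and phosphorylates eIF2.

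Liver RNA of 24 mice was sequenced, with 3 mice per group, each labelled a biological replicate. Every KO group carried a whole-body knockout of GCN2, and every WT group was wild type. The 8 groups were KO LeuD at CT15, KO LeuD at CT03, KO Control at CT15, KO Control at CT03, WT LeuD at CT15, WT LeuD at CT03, WT Control at CT15 and WT Control at CT03. LeuD is a diet devoid of leucine and Control the matching diet on which all mice began. CT03 lies in the subjective day and CT15 in the subjective night, and all mice were killed in constant darkness after several days without light. The labels used here give no age, sex or strain.

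Translation starts when the ternary complex of eIF2, GTP and initiator transfer RNA joins the small ribosomal subunit together with eIF1, eIF1A, eIF3 and eIF5. The eIF4 factors bring the capped messenger RNA, the subunit scans to the start codon, and eIF5B joins the large subunit. The exchange factor eIF2B reloads eIF2 with GTP and is inhibited by phosphorylated eIF2, while eEF1 brings aminoacyl transfer RNA to the elongating ribosome and eEF2 moves it along. Messenger RNAs of the elongation factors and of several initiation factors begin with a terminal oligopyrimidine (TOP) tract, and their translation depends on the nutrient-sensing kinase mTORC1.

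Promoter sequence shows what some members share beyond their names. RefSeq promoters (GRCm38.p6, 250 bases before to 50 bases after the start) matched 43 of the 55 members by symbol. The E-box CACGTG, a palindrome, stood in 12 of these 43 promoters (27.9%), against 8.09% of all genes in the RefSeq table. The ETS motif CCGGAAGT, on either strand, stood in 8 of 43 (18.6%), against 4.31% of all genes. The cAMP response element TGACGTCA was in 1 of 43 (2.33%, against 2.03%), and the TGATGNAAN motif of ATF4 and C/EBP factors in 2 of 43 (4.65%, against 4.50%). A C followed by at least 7 pyrimidines on the sense strand in the 50 bases after the start was found in 11 of 43 (25.6%), against 15.4%. Of the members with known TOP messenger RNAs and a promoter entry, Eif3f had this run, whereas Eef1a1, Eef1b2, Eef2 and Eif4b lacked it. The scan is therefore not a count of TOP tracts. The shares of all genes count the whole RefSeq table, without a restriction to genes expressed in liver. These matches are descriptions of letters in a window and were not tested for binding.

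The stretch around the start of Eef1b2, the member with the clearest diet difference below, is chr1:63176731-63176850 on the plus strand (100 bases before to 20 bases after the start), with the ETS motif in capitals:
Eef1b2: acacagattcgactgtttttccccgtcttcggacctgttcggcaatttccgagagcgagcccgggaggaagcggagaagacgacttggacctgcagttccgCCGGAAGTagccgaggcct

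E-box members that were higher on LeuD are shown as 30 bases around the motif (capitals), at chr10:81176576-81176605 (plus) for Eef2, chr19:60790654-60790683 (minus) for Eif3a, chr7:108934335-108934364 (plus) for Eif3f, chr7:28981915-28981944 (minus) for Eif3k and chr11:69672595-69672624 (minus) for Eif4a1:
Eef2: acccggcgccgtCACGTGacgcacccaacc
Eif3a: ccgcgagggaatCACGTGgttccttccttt
Eif3f: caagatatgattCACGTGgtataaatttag
Eif3k: ctggaaggaaatCACGTGgtagacaaaaaa
Eif4a1: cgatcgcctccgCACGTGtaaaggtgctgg

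The ETS motif, in capitals, appears in reverse complement in Eif3d at chr15:77970878-77970907 (minus) and forward in Eif2b4 at chr5:31193121-31193150 (minus):
Eif3d: gagctgtgacacACTTCCGGttgtgtctca
Eif2b4: acccagtgcacgCCGGAAGTtgtagtccgc

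The first 30 bases from the start of Eif3f at chr7:108934415-108934444 (plus) begin with the pyrimidine run in capitals:
Eif3f: CTCTCTTTCTCggcaagatggcttctccgg

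Depth was 34137121 to 44884200 reads in listed genes per library. Of the 55 members, 54 had a value in every table and in all 24 libraries, and they are the ones tested below. Levels are normalized read counts on 1 scale over the 24 libraries, and changes are log2 differences ± SE of log2(normalized count + 1). Summed hepatocyte markers took 84781 to 184860 RPM (reads scaled to library depth), and those of Kupffer, endothelial, stellate, bile duct and lymphoid cells at most 707 RPM. Pancreas acinar markers (11 of 12 listed) were uneven. LeuD libraries had 13151 RPM in replicate 1 of KO at CT03, 6991 RPM in replicate 3 of KO at CT15 and 3757 RPM in replicate 1 of WT at CT15. Among Control libraries, replicate 1 of KO at CT15 had 568 RPM and replicate 3 of KO at CT03 had 224 RPM, and the remaining 19 libraries had 9.24 to 64.9 RPM. Eif2ak4 had 244 to 464 normalized reads in KO livers and 288 to 350 in WT livers, and reads summed over the whole gene do not check the loss of part of it.

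Per length, 2 elongation factors led and another was lowest of the 55 members. Eef1a1, which carries aminoacyl transfer RNA to the ribosome, had a median of 2404 RPKM (reads scaled to exon length and library depth) over the 24 libraries, and Eef2, the translocase, had 675. Next on this scale came Eif5a (199), which helps ribosomes past difficult peptide bonds, Eif1 (100.2), a guard of start codon choice, Eef1g (84.1), Eif3h (78.9), Eif4b (75.7) and Eef1b2 (72.4). The ranges of neighbours from Eef1g to Eef1b2 overlapped, whereas the lowest value of Eef1a1 (1804) lay above the highest of Eef2 (910). At the other end stood Eef2k (0.979), the kinase that inhibits eEF2, Eif5a2 (0.122), the paralog of Eif5a, and Eef1a2 (0.0603), the eEF1A isoform of muscle and neurons. For Eef1a2 the median is over the 12 libraries that had a value for it. The elongation factor Eef1d lay in the lower part of the order, at 12.5.

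All members together took 1.26% to 1.73% of a library's reads in LeuD livers (median 1.55%), against 1.12% to 1.45% in Control livers (median 1.24%). Eef1a1 and Eef2 held 52.9% to 66.2% of the members' reads. Eif2s3y, the Y-linked copy of the eIF2 gamma subunit, had 1627 to 2801 normalized reads in all 24 libraries.

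Eef1a2 was the member not listed in every table. It had a read count in 12 libraries, with 264 reads in WT Control CT15 replicate 1 and 0 to 9 reads in the other 11. The tables with that library gave log2 changes of 4.41 ± 1.25 for time in WT Control (CT15 minus CT03, adjusted p = 0.138, limma), -2.16 for diet in WT at CT15 and -2.54 for genotype on Control at CT15, and none passed the test. Without that library the time change was 2.84 (adjusted p = 0.165, limma), since the other 2 CT15 livers had 8 reads each, against 0, 0 and 1 at CT03. The lowest read sum of a listed gene was 61 in each table. Eef1a2 reached that sum in these tables only through the 264 reads of that library, so its changes there are no support for a difference.

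Diet was the factor that moved most members by the mean of 4 pairs, a test added after the data were examined. In the planned single pairs limma called 3 members higher in WT at CT03 and 0 members in each other diet pair. Averaged over the 4 pairs of LeuD and Control groups, 19 members were higher and 2 lower on LeuD, of 54 tested (limma, Benjamini-Hochberg adjusted p under 0.05 over all genes). Among all 14474 genes 13.9% were called, 7.15% higher and 6.78% lower, so the members' share called higher was above that of all genes and their share called lower was below it. The members' median change was 0.073, against 0.0018 for all genes tested. Counts by edgeR were the same, 19 higher and 2 lower, where edgeR called 14.6% of all genes. In bulk liver, more cells of a type and more RNA per cell cannot be told apart. Summed markers of hepatocytes and of erythroid cells also had shifted ranges by diet, though the ranges overlapped. Hepatocyte markers took 99397 to 184860 RPM in LeuD livers and 84781 to 135630 in Control livers, and erythroid markers 78.1 to 275 in LeuD and 212 to 460 in Control livers. Their part in the result was not tested.

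**Figure D1:**
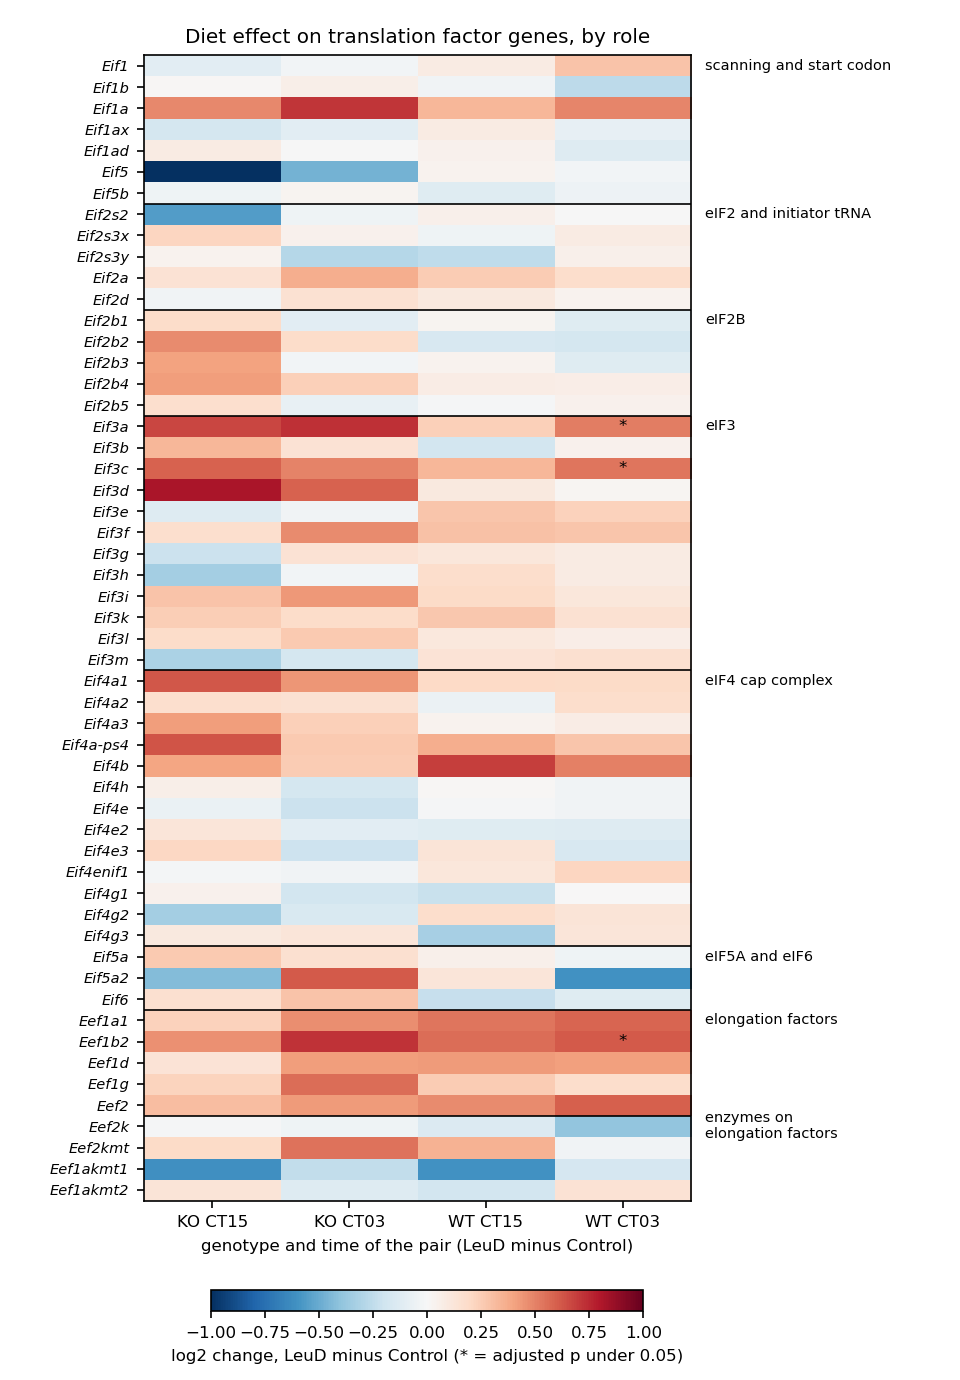
Log2 change (LeuD minus Control) of 54 members, grouped by role, in the 4 pairs of groups, with 3 mice per group; a star marks an adjusted p under 0.05 within that pair (limma). The 5 elongation factor rows are positive in all 4 columns, and Eif5 is the darkest blue, at -0.995 in KO at CT15 and -0.47 in KO at CT03, against 0.03 and -0.02 in WT.

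The elongation factors rose as a group, with 5 of 5 tested members called higher and a median change of 0.45. Eef1b2, the nucleotide exchange subunit that recharges eEF1A, had 7392 to 11385 normalized reads in the 12 LeuD livers (median 9122) and 5111 to 7019 in the 12 Control livers (median 6108). Every LeuD liver was above every Control liver, a separation that 0.111% of all genes showed in that direction. Its mean change was 0.59 ± 0.06 (adjusted p = 1.36e-05, limma), and it was 0.45 in KO at CT15, 0.72 in KO at CT03, 0.56 in WT at CT15 and 0.62 in WT at CT03. Under every alternative run, each left-out library included, the change stayed between 0.56 and 0.62.

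Eef1a1 had 236336 to 331700 normalized reads in LeuD livers (median 276816) and 161675 to 243478 in Control livers (median 202008). In 4 Control livers it exceeded the lowest LeuD liver, and the mean change was 0.45 ± 0.10 (adjusted p = 0.00613, limma). Eef2 had 80866 to 124977 in LeuD livers (median 101169) and 54562 to 109135 in Control livers (median 73234), with a mean change of 0.45 ± 0.12 (adjusted p = 0.0135, limma). For Eef2 the highest Control liver, KO at CT15, exceeded most LeuD livers, and the diets overlapped in all but 1 of the 4 pairs.

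The remaining subunits of the eEF1B exchange complex moved with Eef1b2. Eef1d, a second exchange subunit, had 3194 to 4510 normalized reads in LeuD livers and 2363 to 3584 in Control livers (0.35 ± 0.07, adjusted p = 0.00198, limma). Eef1g, the scaffold of the complex, had 8674 to 13286 in LeuD livers and 7444 to 9356 in Control livers (0.31 ± 0.07, adjusted p = 0.00385, limma). Eef1g was not overlapping in all 4 pairs, Eef1d in 3 of them.

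**Figure D2:**
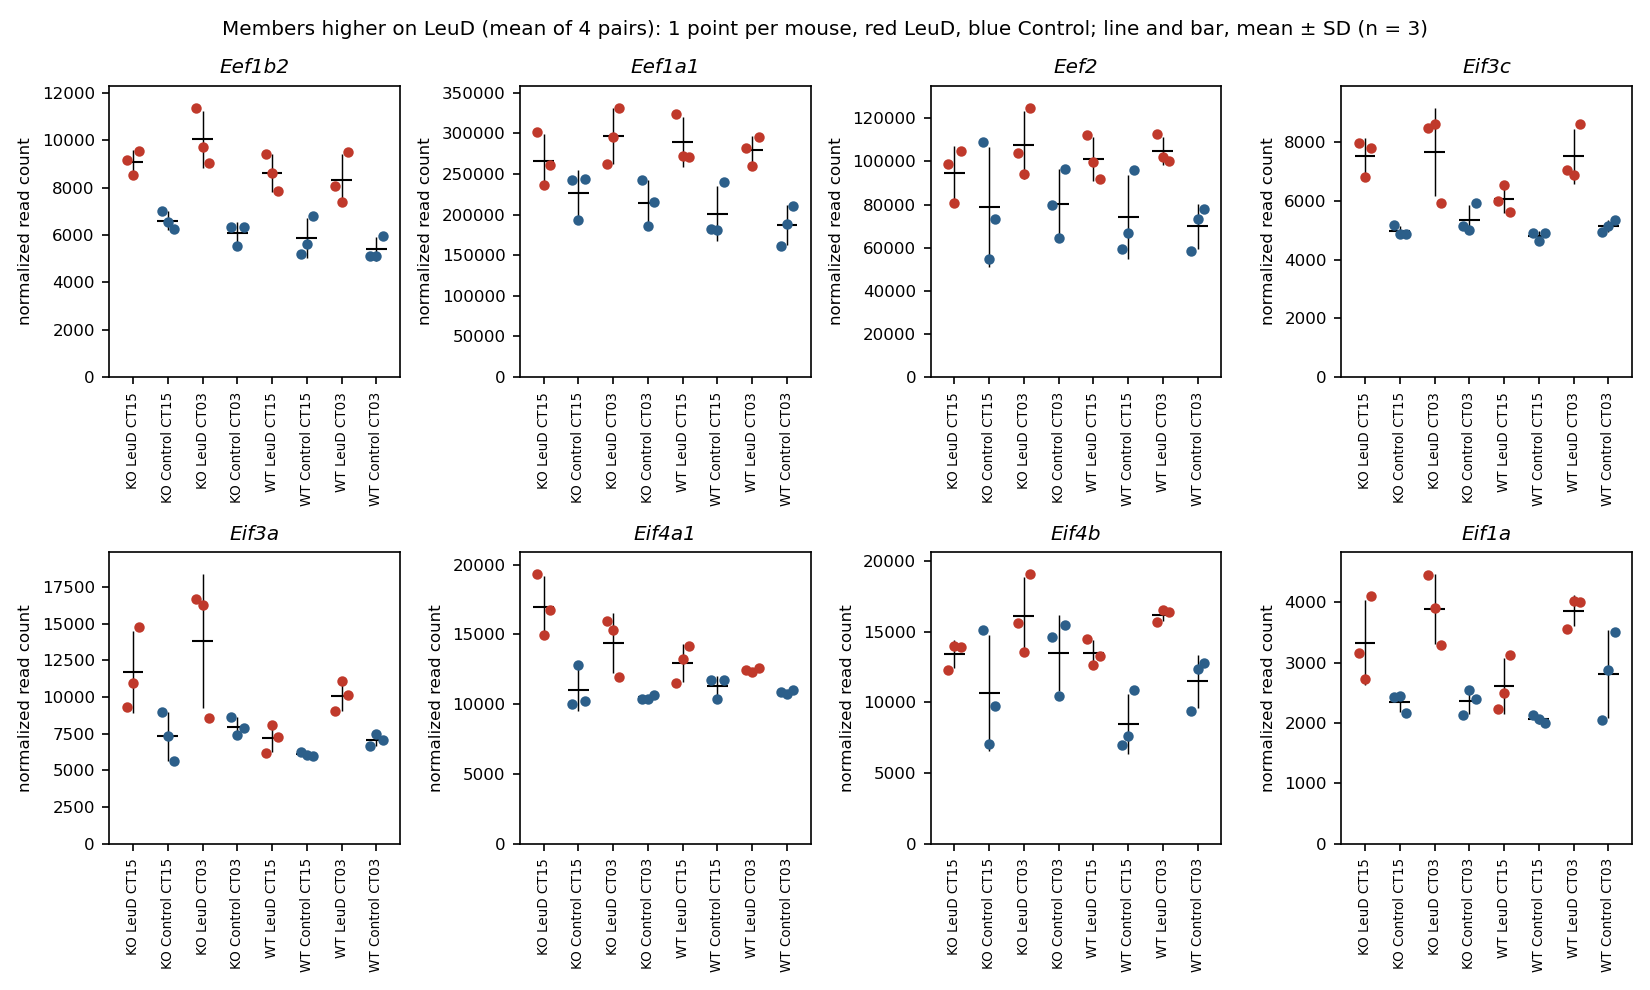
Normalized read counts of 8 members in each of the 24 livers (vertical axes start at 0), with LeuD groups in red beside their Control groups in blue; lines and bars are the mean ± SD of 3 mice. Eef1b2 shows LeuD livers at 7392 to 11385, all above the Control livers at 5111 to 7019, while Eef2 and Eif4b overlap in KO. Eef2 overlaps between diets in all but 1 of the 4 pairs.

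Of the enzymes that act on elongation factors, 1 of 4 was called higher and 1 lower. Eef2kmt, which methylates eEF2, had 249 to 406 normalized reads in LeuD and 207 to 321 in Control livers (0.26 ± 0.09, adjusted p = 0.0472, limma). Eef1akmt1, a lysine methyltransferase of eEF1A, had 125 to 223 in LeuD and 125 to 293 in Control livers (-0.41 ± 0.13, adjusted p = 0.0383, limma). Each of these calls held in 8 of the 24 fits that left out a library, the fewest of the 21 diet calls. Eef2k (-0.14 ± 0.15) and Eef1akmt2 (-0.01 ± 0.10) did not pass.

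The subunits of eIF3, the scaffold that binds the small ribosomal subunit, were split, with 6 of 12 called higher and 0 lower. The called subunits were Eif3a (0.54 ± 0.11), Eif3c (0.49 ± 0.06), Eif3d (0.38 ± 0.08), Eif3f (0.30 ± 0.07), Eif3i (0.26 ± 0.05) and Eif3k (0.22 ± 0.06). Eif3a, the largest core subunit, had 6199 to 16666 normalized reads in LeuD livers (median 9737) and 5643 to 8981 in Control livers (median 7202). Eif3c, a core subunit that contacts eIF1 and eIF5, had 5620 to 8597 in LeuD livers (median 6965) and 4642 to 5931 in Control livers (median 4972). The spread of Eif3a was wide in KO LeuD at CT03, where 2 mice had 16666 and 16261 and the third had 8562.

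Eif3d, a subunit that can itself bind the cap, had 2079 to 4104 normalized reads in LeuD livers and 1797 to 2622 in Control livers (adjusted p = 0.0028, limma). Its values by genotype are given below. Eif3l missed the threshold (0.16 ± 0.05, adjusted p = 0.0538, limma). Eif3b, Eif3e, Eif3g, Eif3h and Eif3m had mean changes between -0.05 and 0.09.

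Among the eIF4 factors, which bind the cap and unwind the leader of the messenger RNA, 4 of 13 were called higher and 0 lower. Eif4a1, the main helicase, had 11500 to 19315 normalized reads in LeuD livers (median 13672) and 10011 to 12772 in Control livers (median 10705), and its change was 0.37 ± 0.06 (adjusted p = 0.000679, limma). Eif4b, which stimulates that helicase, had 12269 to 19099 in LeuD livers (median 14276) and 6971 to 15513 in Control livers (median 10690), with a change of 0.47 ± 0.11 (adjusted p = 0.0084, limma). In 3 Control livers Eif4a1 exceeded the lowest LeuD liver, and for Eif4b 5 Control livers did.

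Eif4a3, the helicase anchor of the exon junction complex, had 1780 to 2904 normalized reads in LeuD and 1751 to 2256 in Control livers (0.19 ± 0.06). Eif4a-ps4, annotated as an eIF4A pseudogene, had 89.2 to 181 in LeuD and 79.5 to 109 in Control livers (0.39 ± 0.09). The sources used here do not say how reads that fit both a pseudogene and its parent were counted, so its values are uncertain. The cap-binding protein gene Eif4e (-0.08 ± 0.06) and the scaffolds Eif4g1 (-0.09 ± 0.06), Eif4g2 (-0.04 ± 0.06) and Eif4g3 (0.00 ± 0.07) did not pass, and neither did the helicase paralog Eif4a2 (0.11 ± 0.08).

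Factors of scanning and start codon choice gave 1 call in each direction of 7. Eif1a, an autosomal gene for eIF1A, had 2229 to 4461 normalized reads in LeuD livers (median 3432) and 1993 to 3515 in Control livers (median 2282), with a change of 0.50 ± 0.09 (adjusted p = 0.000739, limma). It did not overlap between diets within any of the 4 pairs. Its X-linked counterpart Eif1ax had a change of -0.07 ± 0.05 and did not pass. Eif5, the GTPase-activating protein of eIF2, fell on LeuD by the mean of 4 pairs (-0.36 ± 0.08, adjusted p = 0.00673, limma), and the KO pairs carried that mean, as given below. Without the 5 libraries with the most acinar transcripts Eif5 had -0.28 (adjusted p = 0.0529, limma) and was not called, and Eef2kmt (adjusted p = 0.124), Eif2b4 (adjusted p = 0.0623) and Eif3k (adjusted p = 0.0535) also lost their call there.

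Factors that bind or reload eIF2 gave few calls. Eif2a, an initiator transfer RNA carrier outside the eIF2 complex, had 1648 to 2313 normalized reads in LeuD and 1224 to 1897 in Control livers (0.24 ± 0.06, adjusted p = 0.0168, limma), and it was 1 of 5 members of its group called. Eif2b4, the delta subunit of eIF2B, had 1259 to 1907 in LeuD and 1137 to 1668 in Control livers (0.20 ± 0.06, adjusted p = 0.0309, limma), 1 of 5 subunits called. Of Eif5a, Eif5a2 and Eif6, 0 of 3 were called by limma or by edgeR, and 0 had an unadjusted p under 0.05.

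**Figure D3:**
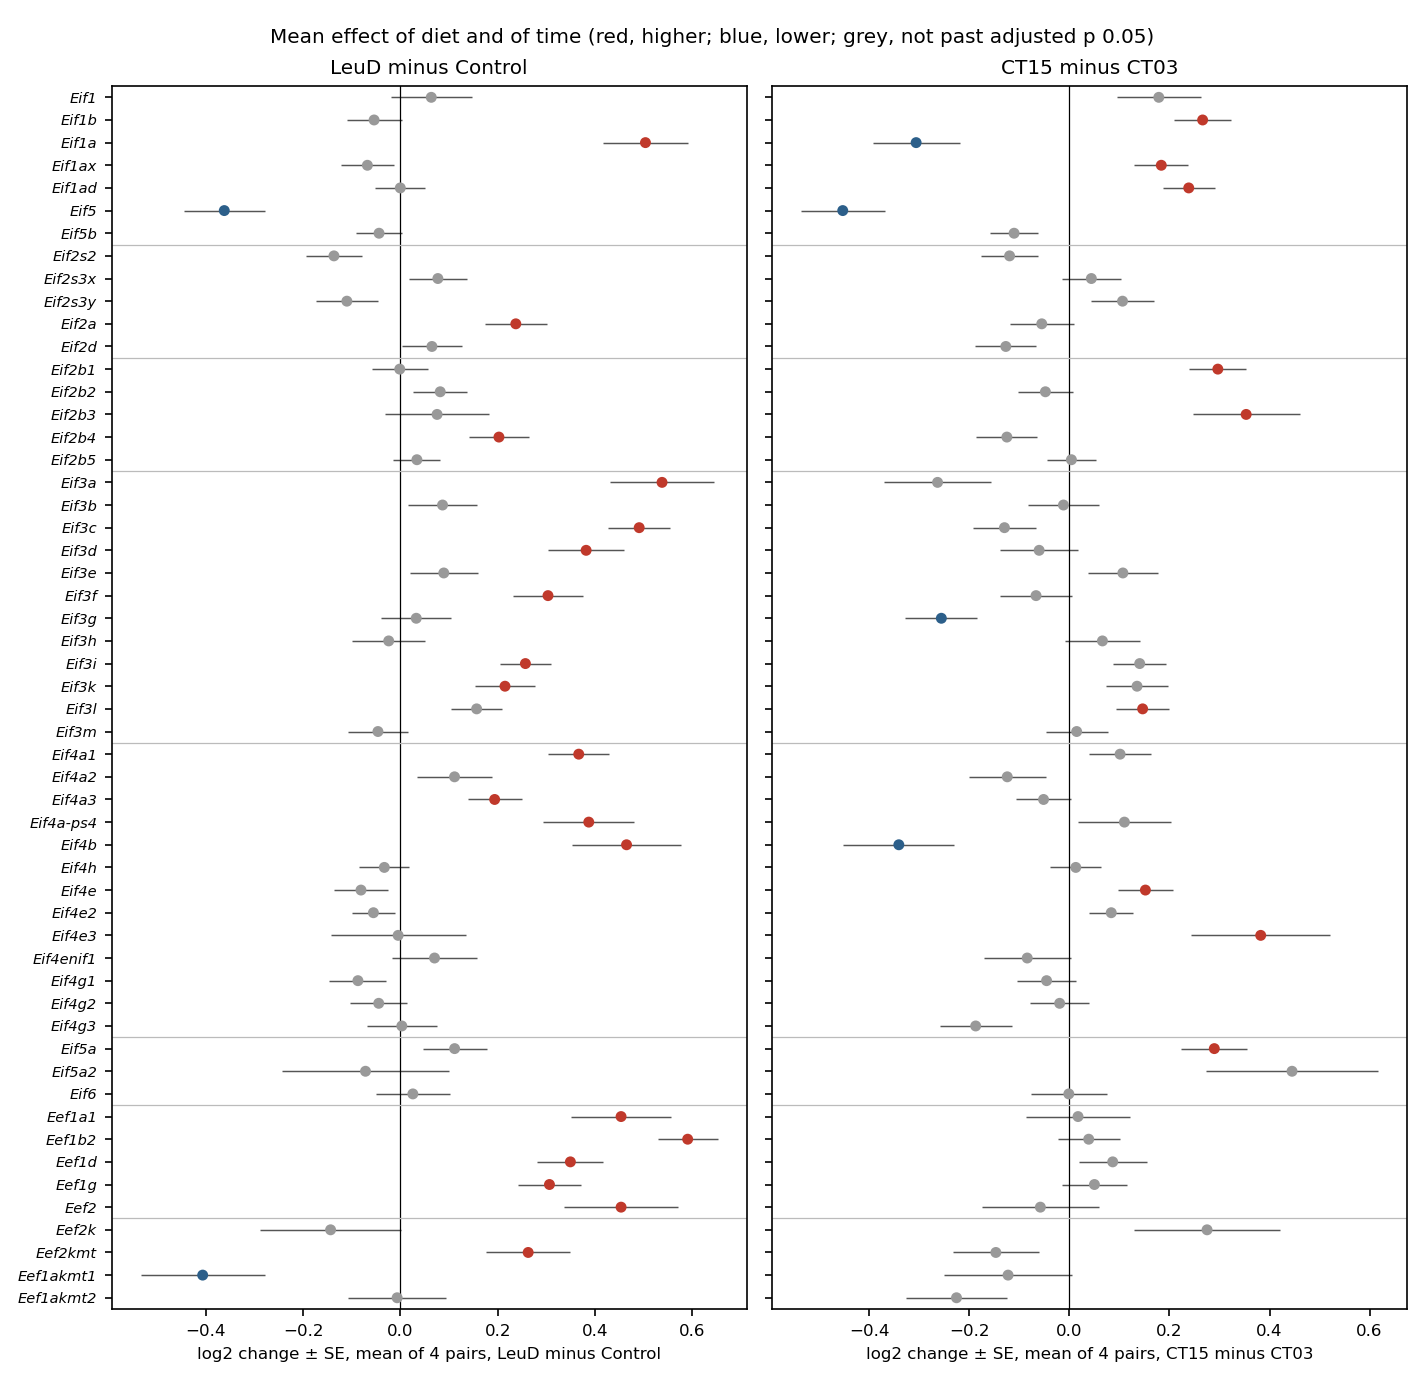
Mean log2 change ± SE over 4 pairs for diet (left, LeuD minus Control) and time (right, CT15 minus CT03), 1 line per member from 24 livers, with red points called higher and blue points called lower by limma. For diet 19 points are red and 2 blue, for time 9 are red and 4 blue, and the 5 elongation factors are red for diet and grey for time.

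Within single pairs the test had fewer mice and called fewer members. In WT at CT03, 3 of 54 were called higher on LeuD and 0 lower, where 2.24% of all genes were called (1.31% higher and 0.93% lower). Eef1b2 had 8065, 7392 and 9510 normalized reads in WT LeuD livers, against 5124, 5111 and 5980 in WT Control livers at CT03 (0.62 ± 0.12, adjusted p = 0.0387, limma). Eif3c had 7046, 6883 and 8597 in WT LeuD, against 4945, 5130 and 5354 in WT Control (0.54 ± 0.11, adjusted p = 0.0429, limma). Eif3a had 9017, 11076 and 10156 in WT LeuD, against 6634, 7473 and 7049 in WT Control (0.51 ± 0.10, adjusted p = 0.0478, limma). None of the 3 overlapped between diets, which adds no support because they were called on the same values. Leaving out single libraries gave 0 or 1 called member, and edgeR called 0 members and 0.193% of all genes. In that pair 21 members did not overlap between diets, where 24% of all genes did not.

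In WT at CT15, 0 of 55 members were called by limma and 0 by edgeR, with 10 at an unadjusted p under 0.05; limma called 0.186% of all genes and edgeR 0.0207%. In KO at CT03 limma called 0 of 54 and 0% of all genes, with 14 members at an unadjusted p under 0.05, while edgeR on the 24 libraries called 8 of 54, all higher (Eef1b2, Eef1g, Eif1a, Eif3a, Eif3c, Eif3d, Eif3i and Eif4a1). Of all genes edgeR called 4.53% in that pair, 2.69% higher and 1.84% lower. Leaving out KO LeuD CT03 replicate 3 gave 9 called members. In KO at CT15 limma called 0 of 54 and 0.0202% of all genes, with 12 at an unadjusted p under 0.05, while edgeR called 8 higher (Eef1b2, Eif2b2, Eif2b4, Eif3c, Eif3d, Eif4a1, Eif4a3 and Eif4a-ps4) and 2 lower (Eif5 and Eif2s2, the beta subunit of eIF2) of 54. There edgeR called 8.41% of all genes, 4.64% higher and 3.77% lower. The diets did not overlap for 16 members in each of these 3 pairs, where the share among all genes was 18.9% in WT at CT15, 19.2% in KO at CT03 and 23% in KO at CT15. Over the 4 pairs, 19 members were higher on LeuD in all of them and 3 lower in all, against 12% and 12.6% of all genes.

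Members with messenger RNAs known to carry a TOP tract were compared with other such genes. Of 9 such members 7 were called higher on LeuD (Eef1a1, Eef1b2, Eef1d, Eef1g, Eef2, Eif3f and Eif4b), with a median change of 0.35, and Eif3e (0.09 ± 0.07) and Eif3h (-0.02 ± 0.08) were not. Across the 9 members the diet change was smaller in KO than in WT for 9 at CT15 and for 5 at CT03. Of those differences 0 were called by limma. Of 7 further TOP genes outside the members, 7 were called higher, with a median of 0.37. The ribosomal scaffold gene Rack1 had the largest of these changes (0.59 ± 0.06). Both lists were drawn up with earlier results of these livers known, so their direction is a description.

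Other genes of translation were looked at by list. Of 11 genes for poly(A)-binding proteins and eIF4F regulators 4 were called higher on LeuD, namely Pabpc4 (0.76 ± 0.12) and Pabpc1 (0.37 ± 0.07), which bind the poly(A) tail (Pabpc1 is also among the 7 TOP genes), Paip1 (0.24 ± 0.06), their partner, and Larp1 (0.27 ± 0.08), a repressor of TOP messenger RNAs. Of 6 termination and recycling genes only Gspt2, a release factor, was called (0.98 ± 0.28, higher). Of 9 mitochondrial translation factors 0 were called higher and 2 lower by limma, Gfm2 (-0.23 ± 0.05), which acts in recycling of mitochondrial ribosomes, and Gfm1 (-0.20 ± 0.06), the mitochondrial translocase, and edgeR called 1 of the 9. The 3 reinitiation factors and the 9 enzymes that make hypusine and diphthamide gave 0 calls by limma and 0 by edgeR, with 0 and 3 genes (Dph2, Dph5 and Dph6) at an unadjusted p under 0.05.

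Of the 14 members called higher on LeuD that had a promoter entry, 5 held the E-box, against 7 of the other 28. The ETS motif was in 3 of the 14 and 5 of the 28, and the pyrimidine run in 3 of the 14 and 7 of the 28. No test was made of these small counts.

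Time moved fewer members by the mean of 4 pairs, also added after the data were examined. Averaged over the 4 pairs of CT15 and CT03 groups, 9 members were higher and 4 lower at CT15 of 54 tested, against 25.1% of all genes called (12% higher, 13.1% lower). The members' median change was 0.0084 and that of all genes 0.0087. Counts by edgeR were 8 higher and 4 lower, where edgeR called 25.6% of all genes. By both methods the members' share called was near that of all genes. The elongation factors gave 0 of 5 calls by limma and by edgeR, with changes of -0.06 to 0.09, where diet called all 5, and the difference between these factors was not tested.

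Eif5 had the lowest p of the members for time. It had 4419 to 13051 normalized reads at CT15 (median 7308) and 7577 to 13372 at CT03 (median 9840), and its mean change was -0.45 ± 0.08 (adjusted p = 0.000524, limma). It was lower at CT15 in all 4 pairs and did not overlap in 3 of them. The exception was KO Control, with 13051, 10507 and 8712 at CT15, against 11716, 10398 and 13372 at CT03.

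Other scanning factors moved in both directions. Eif1b, a paralog of Eif1, had 624 to 941 normalized reads at CT15 (median 832) and 575 to 815 at CT03 (median 657), a change of 0.27 ± 0.06 (adjusted p = 0.00171, limma). Eif1ad (0.24 ± 0.05), which carries an eIF1A-like domain, and Eif1ax (0.18 ± 0.05) were also higher at CT15, while Eif1a was lower (-0.31 ± 0.09, adjusted p = 0.0132, limma). Thus the autosomal and the X-linked gene for eIF1A had mean time changes of opposite sign.

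Of the eIF2B subunits 2 of 5 were higher at CT15. Eif2b1, the alpha subunit, had 1062 to 1553 normalized reads at CT15 (median 1291) and 861 to 1232 at CT03 (median 1054), a change of 0.30 ± 0.06 (adjusted p = 0.000775, limma). Eif2b3, the gamma subunit of the catalytic part, changed by 0.35 ± 0.11 (adjusted p = 0.0199, limma). Eif5a had 15884 to 25593 at CT15 (median 20401) and 14290 to 19417 at CT03 (median 16727), a change of 0.29 ± 0.07 (adjusted p = 0.00293, limma).

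Of the eIF3 and eIF4 factors, Eif3l (0.15 ± 0.05), Eif4e (0.15 ± 0.06) and Eif4e3 (0.38 ± 0.14) were called higher at CT15, and Eif3g (-0.26 ± 0.07) and Eif4b (-0.34 ± 0.11) lower. Eif4e3, an atypical cap-binding protein, had 598 normalized reads in WT Control CT15 replicate 3 and 514 in WT LeuD CT15 replicate 3, and at most 360 in the other 22 libraries. Its call held in 4 of 24 fits without a library, those of Eif4e and Eif3l in 6, that of Eif4b in 17 and the other 9 in all 24. Without the 5 libraries with the most acinar transcripts Eif4e (adjusted p = 0.0520), Eif3g (adjusted p = 0.116) and Eif4e3 (adjusted p = 0.219) were not called by limma. Outside the members the eIF4E kinase gene Mknk2 was higher at CT15 (0.96 ± 0.12), and the eIF4A inhibitor gene Pdcd4 (-0.79 ± 0.14) and Larp1 (-0.36 ± 0.08) were lower. Those were the 3 called of 11 in their list. Of the other lists, 1 of 6 termination genes, 1 of 3 reinitiation genes and 3 of 9 hypusine and diphthamide enzymes were higher, 2 of those 9 enzymes were lower, and 1 of 9 mitochondrial factors was called in each direction. Of the 9 members with TOP messenger RNAs 1 was lower (Eif4b), and of the 7 further TOP genes 0 were called by limma or by edgeR, with 1 at an unadjusted p under 0.05.

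**Figure D4:**
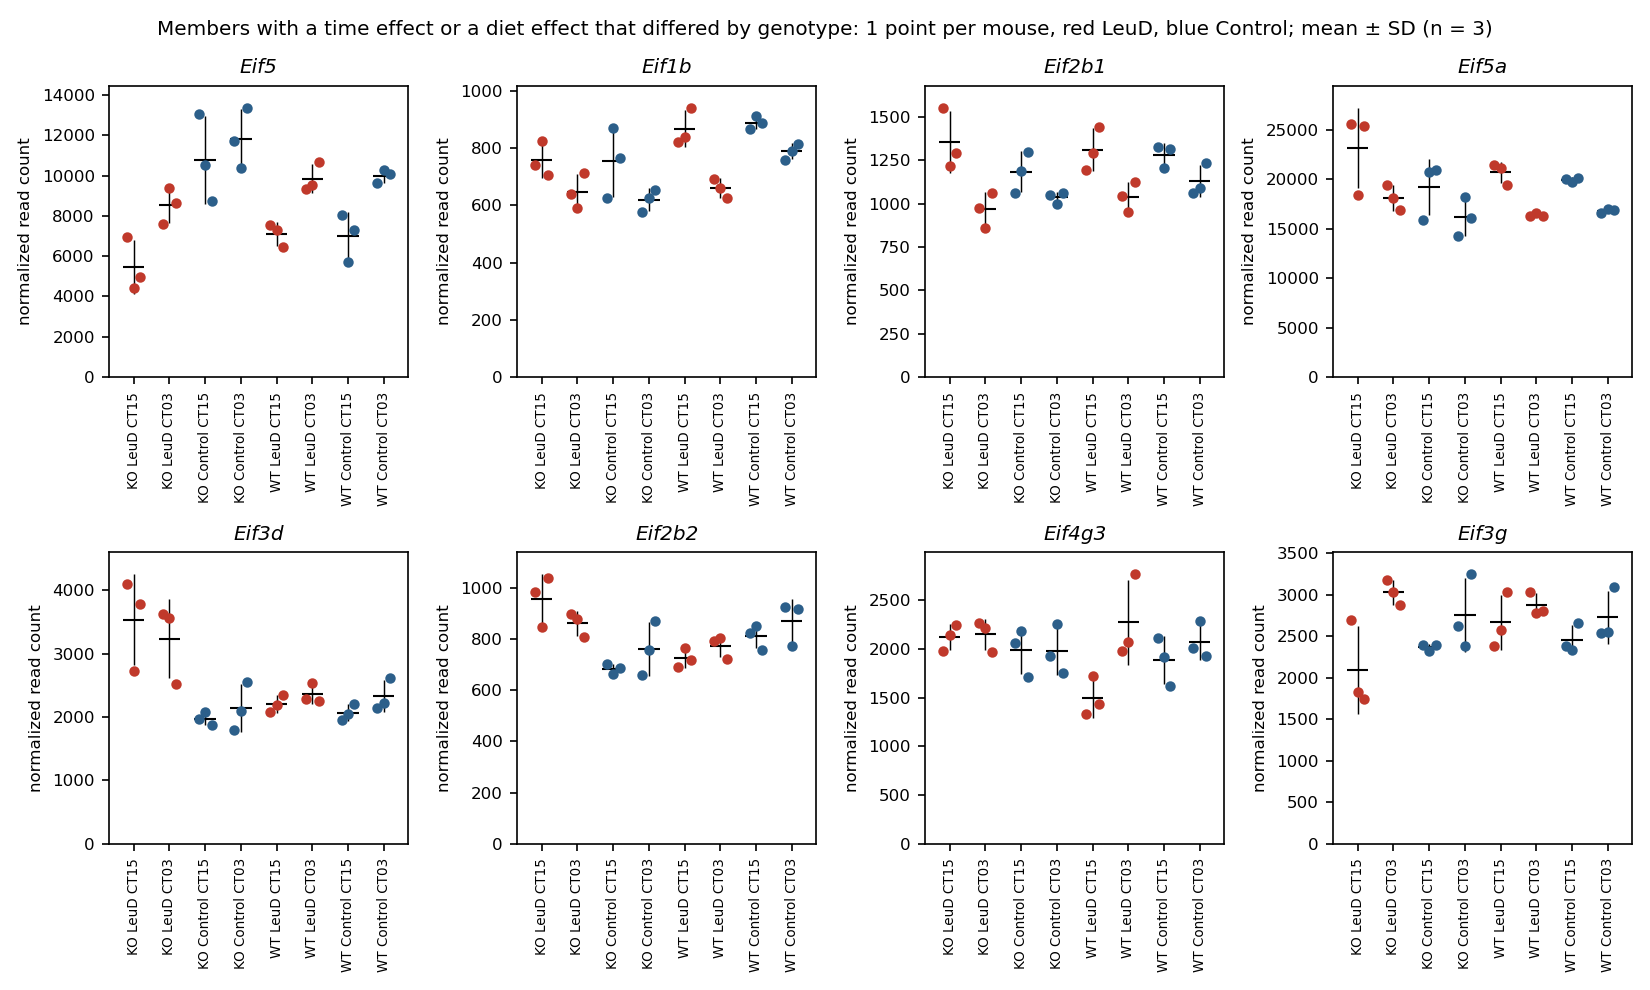
Normalized read counts of 8 members in each of the 24 livers (vertical axes start at 0), with CT15 left of CT03 in each diet and genotype, LeuD in red and Control in blue; lines and bars are the mean ± SD of 3 mice. Eif5 sits at 4419 to 6949 in KO LeuD at CT15, and apart from 1 WT Control and 1 WT LeuD liver at CT15 every other liver is above 6949; the mean of Eif3d is highest in the 2 KO LeuD groups.

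Of the single pairs, limma called members for time in WT LeuD, and whether time changes differed between pairs was tested by the interactions below. In WT LeuD 1 of 54 was higher and 4 lower at CT15, where 9.61% of all genes were called (4.32% higher and 5.29% lower). Eif5 had 7549, 7322 and 6443 normalized reads at CT15, against 9338, 9519 and 10664 at CT03 (-0.47 ± 0.10, adjusted p = 0.0266, limma). Eif4g3, a scaffold paralog of Eif4g1, had 1327, 1727 and 1434 at CT15, against 1980, 2069 and 2771 at CT03 (-0.60 ± 0.15, adjusted p = 0.0456, limma). Eif1a (-0.57 ± 0.13, adjusted p = 0.0319), Eif3a (-0.49 ± 0.13, adjusted p = 0.0483) and Eif1b (0.39 ± 0.10, adjusted p = 0.0476) were the others called by limma. None of the 5 overlapped between times, which adds no support because they were called on the same values. In all, 18 members did not overlap, a share near the 31.3% of all genes that did not. Only 0 to 2 members were called when any single library was left out, and edgeR called 1 higher and 1 lower, where it called 4.9% of all genes.

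For the other time pairs limma called 0 members. In WT Control limma called 1.42% of all genes, 7 members had an unadjusted p under 0.05, and edgeR called 0 members and 1.21% of all genes. In KO Control limma called 0.0407% of all genes, 1 member had an unadjusted p under 0.05, and edgeR called 0 members and 3.88% of all genes. In KO LeuD limma called 0.805% of all genes, and 6 members had an unadjusted p under 0.05. There edgeR called Eif2b1 higher and Eif2d, Eif2s2, Eif3g and Eif5 lower, 5 of 54 members, a share near its 8.29% of all genes (4.55% higher and 3.74% lower). The change of Eif5 in these pairs was -0.52 ± 0.14, -0.16 ± 0.19 and -0.67 ± 0.20, in the order given.

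Genotype gave few calls. Averaged over 4 pairs of KO and WT groups limma called 0 of 54 members and 2.48% of all genes, edgeR called 0 members and 2.54% of all genes, and 10 members had an unadjusted p under 0.05. The lowest adjusted p values were those of Eif1b (-0.21 ± 0.06, adjusted p = 0.0584, limma) and Eif3a (0.38 ± 0.11, adjusted p = 0.0661, limma). Eif1b had 575 to 869 normalized reads in KO livers and 624 to 941 in WT livers, and the ranges overlapped. Eif3m lies within 30 Mb of Eif2ak4 on chromosome 2, the only member that does, and it gave no call.

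Single genotype pairs gave 0 calls by limma in all 4. On Control limma called 0.0136% of all genes at CT03 and 0.0798% at CT15, with 1 member at an unadjusted p under 0.05 at each time. There edgeR called 0 members at either time, and 0.0829% of all genes at CT03 and 0.152% at CT15. On LeuD at CT03 limma called 0.0484% of all genes, 4 members had an unadjusted p under 0.05, and edgeR called 0 members and 1.02% of all genes. On LeuD at CT15 limma called 1.89% of all genes, and 13 members had an unadjusted p under 0.05. There edgeR called Eif3d and Eif2b2 higher and Eif2s2 lower, 3 of 54 members, where it called 3.77% of all genes. KO and WT did not overlap there for 17 members, where 24.5% of all genes did not. There the lowest adjusted p was that of Eif3d, which had 4104, 2730 and 3780 normalized reads in KO LeuD livers, against 2079, 2190 and 2354 in WT LeuD livers (0.66 ± 0.16, adjusted p = 0.0811, limma). Eif4g3 had 1979, 2147 and 2245 in KO LeuD, against 1327, 1727 and 1434 in WT LeuD (0.51 ± 0.13, adjusted p = 0.0922, limma).

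Whether the diet effect depended on genotype was tested directly. At CT03 limma called 0 of 54 members and 0% of all genes, with 5 members at an unadjusted p under 0.05. At CT15 it called 0 members and 0.104% of all genes, with 8 at an unadjusted p under 0.05. With edgeR 0 members were called at either time, with 0% of all genes at CT03 and 0.525% at CT15. Over the mean of both times, a test added after the data were examined, limma called 3 members, Eif5, Eif3d and Eif2b2. There limma called 1.49% of all genes, and edgeR called 2 members higher and 1 lower, where it called 1.95% of all genes.

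Eif5 had diet changes of -0.995 ± 0.22 at CT15 and -0.47 ± 0.15 at CT03 in KO livers, and of 0.03 ± 0.14 and -0.02 ± 0.09 in WT livers. At CT15 it had 6949, 4419 and 4976 normalized reads in KO LeuD livers, against 13051, 10507 and 8712 in KO Control livers. In WT at CT15 it had 7549, 7322 and 6443 in LeuD livers, against 8038, 5695 and 7293 in Control livers. At CT03 KO LeuD livers had 7577, 9369 and 8653, against 11716, 10398 and 13372 in KO Control livers. The diets did not overlap in KO at either time and overlapped in WT at both. The diet change in KO minus that in WT was -0.73 ± 0.17 (adjusted p = 0.038, limma).

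Eif3d went the other way. It had 4104, 2730 and 3780 normalized reads in KO LeuD livers, against 1968, 2079 and 1872 in KO Control livers at CT15. At CT03 it had 3627, 3561 and 2525 in KO LeuD, against 1797, 2089 and 2546 in KO Control. In WT livers the diet changes were 0.09 ± 0.10 at CT15 and 0.02 ± 0.10 at CT03. The diet change in KO minus that in WT was 0.65 ± 0.16 (adjusted p = 0.0427, limma).

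Eif2b2, the beta subunit of eIF2B, had 957 ± 98.5 normalized reads in KO LeuD and 685 ± 19.2 in KO Control livers at CT15 (SD, n = 3 each). In WT at CT15 it had 726 ± 37.2 in LeuD and 812 ± 47.8 in Control livers. The difference of the diet changes over both times was 0.50 ± 0.11 (adjusted p = 0.0346, limma). Without the 5 libraries with the most acinar transcripts, of which 2 are KO LeuD, limma called 0 members, with differences of 0.49 for Eif2b2, 0.62 for Eif3d and -0.52 for Eif5 (adjusted p = 0.108, 0.151 and 0.221 in that order). KO LeuD livers also differed in composition: mitochondrially encoded genes took 2.24% to 4.14% of their reads, against 4.23% to 6.31% in all other libraries, and albumin 11.8% to 15.3%, against 6.14% to 10.9%. The part of these differences in the result was not tested.

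**Figure D5:**
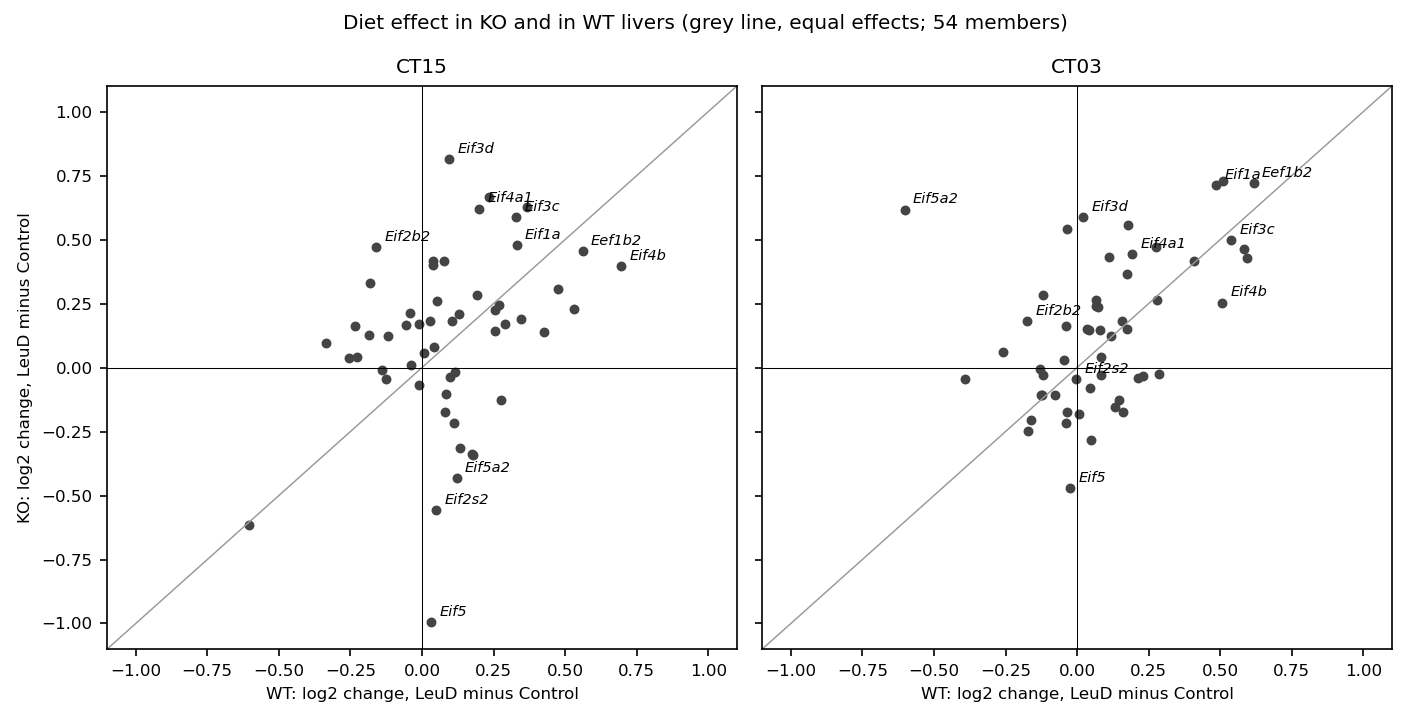
Diet change (log2, LeuD minus Control) of 54 members in KO livers (vertical axis) against WT livers (horizontal axis), at CT15 (left) and CT03 (right), from 3 mice per group with no library shared between the axes; the grey line marks equal changes. At CT15 Eif5 lies far below the line (-0.995 in KO, 0.03 in WT) and Eif3d above it (0.82 in KO, 0.09 in WT), while Eef1b2 and Eif3c are positive on both axes at both times.

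The other interactions called 0 members by limma and by edgeR. For time by diet, limma called 0.00691% of all genes in WT and 0% in KO (edgeR 0% and 0.173%), and 2 members in each had an unadjusted p under 0.05. For time by genotype, limma called 0.0276% of all genes on Control and 0.0207% on LeuD (edgeR 0.0276% and 0.0553%), with 0 and 2 members at an unadjusted p under 0.05. For Eef1b2 the difference in diet change between KO and WT was 0.11 ± 0.18 at CT03 and -0.10 ± 0.18 at CT15. Neither passed, and an interval of that width does not show that the genotypes responded alike.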

How the data were processed

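Poly(A)-enriched liver RNA of 24 mice was sequenced. The submitters' processing notes name STAR 2.5.2b, Trimmomatic 0.36, DESeq2, DESeq, Subread 1.5.2 and featureCounts, and the build GRCm39. Their order, the annotation and the handling of shared reads: not given in the sources used here. By its usual protocol the kit does not mark strand. The signal deposited by the authors in 10 pairwise tables is gene counts over a size factor per library. The tables also hold log2 fold changes and p-values computed and deposited by the authors, used here as an alternative. Of 862439 values, 100% gave whole reads within 0.01.

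Changes were tested within each table with limma 3.58.1 (R 4.3.3, intensity trend) on log2(normalized count + 1), 2-sided, adjusted over all genes. KO against WT on LeuD, interactions and means of pairs used the recovered reads on 1 median-ratio scale of 24 libraries. The means of pairs, and of the diet by genotype difference over both times, were added after the data were examined. The members and lists were chosen with earlier results of these data known. Named genes were the called members, those the lists hold and those with the lowest p. edgeR 4.0.16 was an alternative. Lengths are exon unions of GENCODE M21, motif shares RefSeq GRCm38.p6. With 3 mice per group, p-values set a difference of group means against the spread between these mice, moderated over all genes.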

Additional observations from a re-analysis of the deposited data

Results flagged for a closer look

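The diet change of 3 members differed between KO and WT livers by the test of that difference, averaged over both times (limma, adjusted over all genes). The difference, KO minus WT, was -0.73 for Eif5, 0.65 for Eif3d and 0.50 for Eif2b2 on the log2 scale. This mean was added after the data were examined, and at CT03 or CT15 alone limma called 0 members. Of the 24 fits that each left out a library, Eif5 was called in 10, Eif3d in 4 and Eif2b2 in 12. Without the 5 libraries with the most acinar transcripts limma called none of them. The adjusted p was then 0.221 for Eif5, 0.151 for Eif3d and 0.108 for Eif2b2 (limma). No alternative run reversed a sign.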

How the results depend on the processing

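For the diet mean 19 members were called without the 5 libraries with acinar transcripts. These are not 19 of the 21 diet calls, since Eif5, Eef2kmt, Eif2b4 and Eif3k lost their call there and other members gained one. When single libraries were left out 18 to 22 members were called for the diet mean. Of its 21 calls 17 held in all 24 such fits. The time mean ranged from 9 to 14, the genotype mean from 0 to 3 and the diet by genotype mean from 0 to 9, the last with 9 without KO LeuD CT03 replicate 3. Without that library 9 members were called for diet in KO at CT03, 5 for genotype on LeuD at CT03 and 4 for diet by genotype at CT03, against 0 in each with it.

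Left-out libraries gave 0 to 2 calls for time in WT LeuD (5 with all), 0 to 1 for diet in WT at CT03 (3 with all), 0 to 1 for diet in WT at CT15 and 0 to 1 for genotype on LeuD at CT15. The range was 0 to 0 for time in WT Control, KO Control and KO LeuD, diet in KO at CT15, genotype on Control at both times, and the other interactions.

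With edgeR, 2 members were called for time in WT LeuD (4.9% of all genes), 5 for time in KO LeuD (8.29%), 0 for diet in WT at CT03 (0.193%), 8 for diet in KO at CT03 (4.53%), 10 for diet in KO at CT15 (8.41%) and 3 for genotype on LeuD at CT15 (3.77%). By the adjusted p of the authors' deposited tables, 1 was called for time in WT Control (6.2% of genes with an adjusted p), 8 for time in WT LeuD (13.7%), 7 for diet in WT at CT03 (7.22%), 3 for diet in WT at CT15 (3.7%), 3 for diet in KO at CT03 (3.51%) and 4 for diet in KO at CT15 (4.82%). Without the acinar libraries time in WT LeuD gave 2 and the diet by genotype mean 0. Restriction to genes with a mean of at least 50 gave 1 for the genotype mean. The causes were not tested.

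Replicate numbers did not pair the mice: in 6 of 36 pairs the deviations correlated above 0.1, and in 0 of 12 comparisons did all pairs. With a replicate block time in WT LeuD gave 2 calls, diet in WT at CT03 2, the diet mean 20, the time mean 11 and the diet by genotype mean 2. Of 566 settings for 40 named results of planned comparisons, 489 kept direction and side of the threshold, 57 lost a call, 20 gained one and 0 reversed. For the means of pairs the numbers were 997, 166, 7 and 0 of 1170.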
